A study of Glycine max with 4 samples.

Results

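The 6 genes described here are soybean clock genes taken by identifier from a count table of 56044 genes. They are J (Glyma.04G050200) and its ELF3 homologue (Glyma.14G091900), LUX1 (Glyma.12G060200) and LUX2 (Glyma.11G136600), and the PRR3 copies Tof12 (Glyma.12G073900) and Tof11 (Glyma.U034500). The rule that picks them uses identifiers and no measured value, although the set was proposed with earlier results of these data known. All 6 of 6 were detected in every library and passed the filter on low counts. The names are those given with the identifiers for this work. The deposited tables hold identifiers only, and a reference table of 59048 RefSeq genes (assembly Glycine_max_v4.0) matched 0 of them. That table lists genes named ELF3A, ELF3B, LUXB and LUXC on chromosomes 4, 14, 12 and 11, and PRR3A and PRR3B on chromosomes 11 and 12. The number before the G in an identifier is the chromosome, and these agree for J, its homologue, LUX1, LUX2 and Tof12. The identifier of Tof11 carries a U in place of a chromosome.

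The evening complex is a repressor of transcription in the plant circadian clock. In Arabidopsis it is built from ELF3, ELF4 and LUX, where ELF3 is a scaffold and LUX is the DNA-binding protein. In soybean, J is an ELF3 protein that works with LUX proteins to repress the maturity gene E1, a legume repressor of FT florigen genes, and so allows flowering in short days. PRR3 genes encode pseudo-response regulators, which repress the morning-expressed LHY genes of the clock, and the loci Tof11 and Tof12 delay flowering in long days. Transcripts of clock genes rise and decline over the day, so a single harvest shows a single point of each cycle.

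RNA was sequenced from shoot (meristem) tips of 4 Glycine max plants of cultivar Thorne, grown in a greenhouse for 1 month, and each tip of 5 cm included immature trifoliate leaves. Tagged 1 and tagged 2 are transgenic plants positive for the mmPing20F insertion, an mPing transposon built as an activation tag, at chromosome 8 position 2785626. The plants negative for it are untagged 1, which is transgenic and carries the transposase expression construct, and untagged 2, which is untransformed. The insertion is the same in both tagged plants. The labels do not say whether they also carry the transposase construct, what promoter drives it, or at what hour the tips were harvested. Library totals ran from 27900266 to 49210060 counts. The untransformed library stood apart from the other 3: its normalized count lay outside the range of the 3 transgenic libraries at 85.7% of the 40884 genes tested between them. Part of that share arises by order alone, as any library of 4 is often the highest or lowest. Results are therefore given for tagged against untagged plants, as the study was designed, and for the 3 transgenic plants against the untransformed one, with each library's value. The tissue label was not checked against marker genes, since the identifiers carry no names by which to verify markers. With a single untransformed plant, transformation, plant line and the conditions of that plant's growth and harvest cannot be told apart, and in a whole shoot tip fewer cells of a type cannot be told from less RNA per cell.

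The LUX genes, the DNA-binding members of the evening complex, differed between transgenic and untransformed shoot tips in opposite directions. LUX2 was lower in every transgenic plant and LUX1 was higher in every transgenic plant than in the untransformed plant. The untransformed plant lay outside the transgenic range for every member and at 85.7% of all genes tested, so such a separation is not read as particular to them. LUX2 had 387 and 410 normalized counts (counts divided by the library's size factor) in tagged 1 and tagged 2, 240 in untagged 1 and 1805 in the untransformed plant. The untransformed plant was the highest by a wide margin, and the transgenic untagged plant was the lowest. LUX1 had 389 and 335 normalized counts in tagged 1 and tagged 2, 386 in untagged 1 and 216 in the untransformed plant. The 3 transgenic plants lay close together here, above the untransformed one. Over the transgenic plants LUX2 averaged 346 ± 92.4 normalized counts (SD, n = 3), 0.192 times the untransformed level. LUX1 averaged 370 ± 30.5 (SD, n = 3), 1.71 times the untransformed level. The test of this comparison was edgeR's quasi-likelihood test with Benjamini-Hochberg adjustment over all genes. The untransformed side is 1 library with no spread of its own, assumed to vary like the other 3, so each SE and p of this comparison measures that plant against the spread among the transgenic plants. LUX2 fell by 2.36 on the log2 scale relative to the untransformed plant (SE 0.26, edgeR adjusted p = 0.000686). LUX1 rose by 0.80 relative to it (SE 0.20, edgeR adjusted p = 0.0165).

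**Figure D1:**
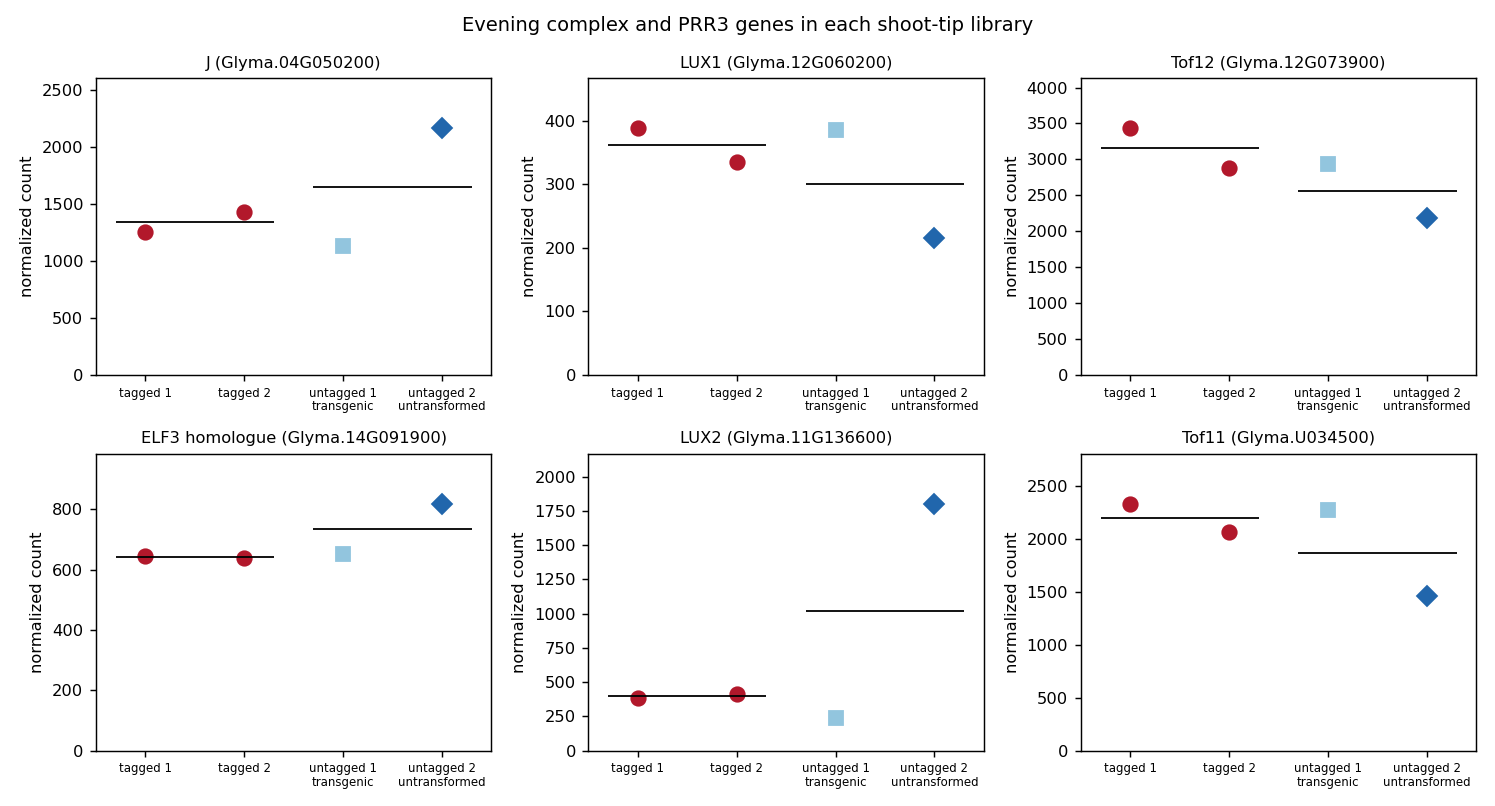
Normalized counts of the 6 genes in each library, with one panel per gene, a linear axis from 0, and a horizontal line at the mean of each pair of plants. The tagged plants (red circles) and the transgenic untagged plant (light blue square) lie near each other in most panels, while the untransformed plant (dark blue diamond) lies above them for J, the ELF3 homologue and LUX2 and below them for LUX1, Tof12 and Tof11. The untransformed plant lay outside the transgenic range at 85.7% of all genes tested, so this separation is not read as particular to the 6 genes.

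The balance between the LUX copies can be read within each library, where scaling cancels. Of the counts of both copies together, LUX1 supplied 50.1% in tagged 1 (exact Clopper-Pearson 95% interval 47.2 to 53.1, of 1151 counts) and 45.0% in tagged 2 (41.0 to 49.0, of 625). Its share was 61.7% in untagged 1 (57.6 to 65.6, of 590) and 10.7% in the untransformed plant (9.27 to 12.2, of 1721). These intervals cover counting error only. A share of counts is not a share of transcripts, because the copies may differ in length, but it can be compared between libraries. The share averaged 52.3% ± 8.57 (SD, n = 3) in transgenic plants against 10.7% in the untransformed plant, a difference of 41.6 percentage points. A two-sided exact permutation test over the 4 plants gave p = 0.25, the smallest this design allows. The difference was larger than the range among the transgenic plants. The sum of both copies was 776, 745 and 626 normalized counts in tagged 1, tagged 2 and untagged 1, and 2021 in the untransformed plant. LUX2 made up most of the higher sum.

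**Figure D2:**
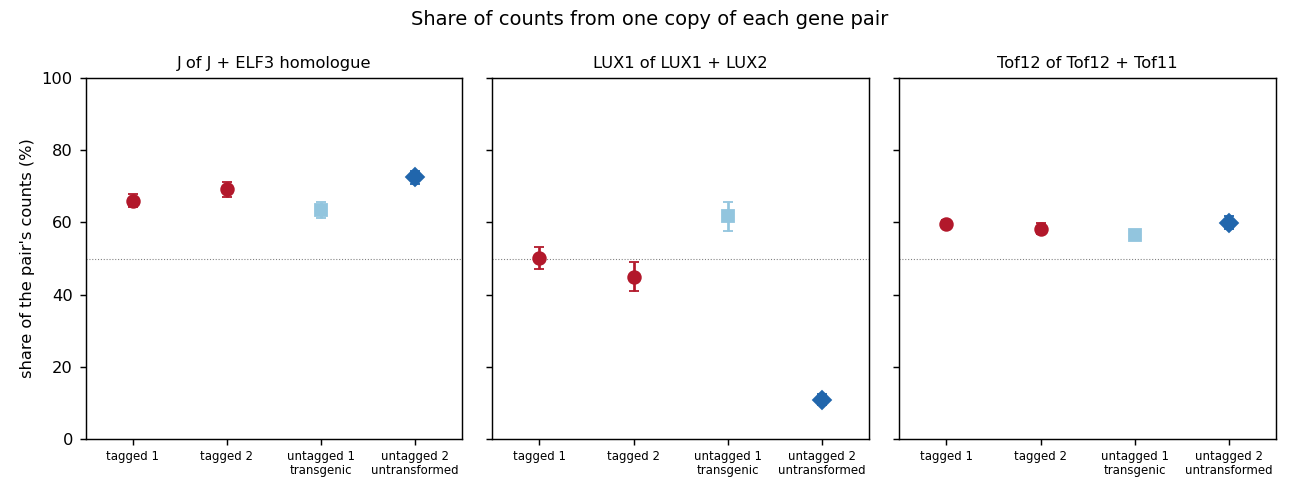
Share of a gene pair's counts that came from the copy named first in each panel title, per library, in percent, with exact 95% binomial intervals that cover counting error. The LUX1 share was 10.7% in the untransformed plant and between 45.0% and 61.7% in the others, while the Tof12 share stayed between 56.4% and 60.0% in all 4 libraries.

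Among the transgenic plants LUX2 had its highest counts in the tagged ones, beyond counting error but not in the test across plants. It was 1.61 times (counting interval 1.38 to 1.89) and 1.71 times (1.44 to 2.03) as high in tagged 1 and tagged 2 as in the transgenic untagged plant, and the ratio of tagged 1 over tagged 2 was 0.944 (0.824 to 1.08). For LUX1 the same ratios were 1.01 (0.882 to 1.15) and 0.867 (0.740 to 1.02). With the untransformed plant left out, LUX2 had a log2 fold change of 0.74 ± 0.18 (SE) between tagged plants and the single transgenic untagged plant. It was not past the threshold (edgeR adjusted p = 0.317), and a single plant on one side cannot be told from the tag.

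J, the ELF3 scaffold of the evening complex, was lower in every transgenic plant than in the untransformed plant. It had 1256 and 1433 normalized counts in tagged 1 and tagged 2, 1133 in untagged 1 and 2170 in the untransformed plant. The transgenic plants averaged 1274 ± 151 (SD, n = 3), 0.587 times the untransformed level. J fell by 0.75 on the log2 scale relative to the single untransformed plant (SE 0.16, edgeR adjusted p = 0.00989). Its ELF3 homologue was steadier, at 645 and 638 normalized counts in tagged 1 and tagged 2, 652 in untagged 1 and 820 in the untransformed plant. The 3 transgenic plants averaged 645 ± 6.9 (SD, n = 3) and all lay below the untransformed plant. The log2 fold change was -0.32 ± 0.14 (SE) and did not pass (edgeR adjusted p = 0.0914). J supplied 66.1%, 69.2% and 63.5% of the pair's counts in tagged 1, tagged 2 and untagged 1, and 72.6% in the untransformed plant. The untransformed share was the highest, but the difference of -6.32 percentage points stood beside an SD of 2.86 among the transgenic plants (two-sided exact permutation p = 0.25, the smallest possible).

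Both PRR3 copies were higher in transgenic plants, the direction opposite to that of J and LUX2. Tof12, a pseudo-response regulator, had 3439 and 2886 normalized counts in tagged 1 and tagged 2, 2938 in untagged 1 and 2185 in the untransformed plant. Tof11, the other copy, had 2332 and 2063 in tagged 1 and tagged 2, 2269 in untagged 1 and 1460 in the untransformed plant. For both copies the untransformed plant was the lowest of the 4. Tof12 averaged 3088 ± 305 (SD, n = 3) over transgenic plants, 1.41 times the untransformed level, and Tof11 averaged 2221 ± 141 (SD, n = 3), 1.52 times that level. Tof11 rose by 0.63 on the log2 scale relative to the single untransformed plant (SE 0.16, edgeR adjusted p = 0.0171). Tof12 had a log2 fold change of 0.52 (SE 0.18) with an edgeR adjusted p of 0.04997, at the edge of the threshold, and it passed in 6 of the 12 settings tried, this one included. Tof12 supplied 59.6%, 58.3% and 56.4% of the pair's counts in tagged 1, tagged 2 and untagged 1, against 60.0% in the untransformed plant. The shares of transgenic plants, 58.1% ± 1.6 (SD, n = 3), and of the untransformed plant differed by -1.84 percentage points (two-sided exact permutation p = 0.5), close to the spread between plants.

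Between tagged and untagged plants, the comparison the study was designed for, none of the 6 genes passed the test. The tagged plants averaged 399 ± 16.3 normalized counts of LUX2, against 1022 ± 1107 in untagged plants (SD, n = 2 each). The spread of the untagged pair exceeded its mean difference from the tagged pair. For J the averages were 1345 ± 125 in tagged and 1652 ± 733 in untagged plants, and for LUX1 they were 362 ± 38.3 and 301 ± 120. Tof12 averaged 3163 ± 391 in tagged and 2562 ± 532 in untagged plants, and Tof11 averaged 2197 ± 191 and 1864 ± 572. The untagged pair had the wider spread for each of these genes. The ELF3 homologue averaged 641 ± 4.85 in tagged and 736 ± 119 in untagged plants. It was the single gene of the 6 whose groups did not overlap, with the tagged plants below. A lack of overlap in either direction was seen at 29.1% of all genes tested. The lowest untagged value of the ELF3 homologue, 652, was close to its higher tagged one, 645.

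Log2 fold changes of tagged over untagged plants were -1.36 ± 0.97 (SE) for LUX2, -0.30 ± 0.41 for J, -0.20 ± 0.26 for the ELF3 homologue, 0.27 ± 0.39 for LUX1, 0.31 ± 0.32 for Tof12 and 0.24 ± 0.34 for Tof11. Adjusted p-values from edgeR lay between 0.947 and 0.949. In this comparison 0 of 6 members passed, against a background of 0% of 38824 genes (0 genes, with 444 at an unadjusted p under 0.05); the smallest unadjusted p among the 6 was 0.227. DESeq2 after the same filter called 19 genes, or 0.0489%, and limma-voom called 0 genes, or 0%; both called 0 members. These values turned on the untagged plant used. Without the transgenic untagged plant, 5 of the 6 genes passed, against 49.4% of all genes. Without the untransformed plant 0 passed, against 0.0101% of all genes. Log2 fold changes were then 0.25 for J, -0.081 for LUX1, 0.12 for Tof12, -0.037 for Tof11 and -0.015 for the ELF3 homologue, beside 0.74 for LUX2. The directions of J, LUX2, LUX1 and Tof11 turned.

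**Figure D3:**
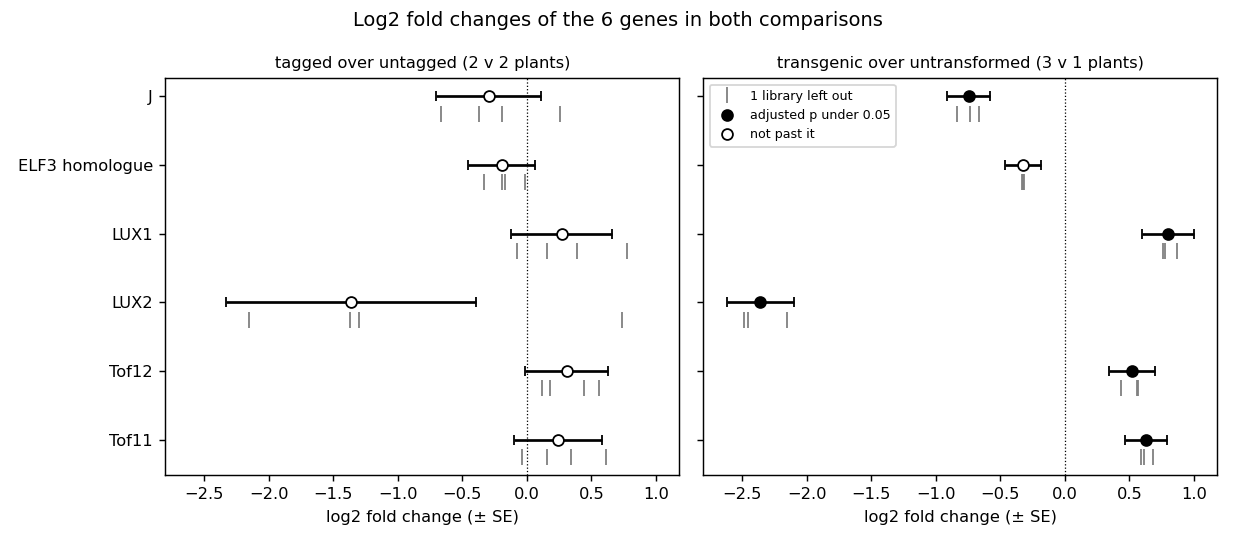
Log2 fold changes of the 6 genes with standard errors for tagged over untagged plants (left) and transgenic over untransformed plants (right), with filled circles for an adjusted p under 0.05 and grey ticks for the values with 1 library left out. On the left every interval is wide and the ticks of LUX2 run from -2.16 to 0.74, and on the right 5 of the 6 genes pass and the ticks stay on the same side of 0.

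In the comparison of transgenic with untransformed plants, 3 of the 6 genes rose (LUX1, Tof11 and Tof12), 2 fell (LUX2 and J), and the ELF3 homologue did not pass. Of all 40884 genes tested, 49.1% were called in this comparison, 23.3% higher and 25.8% lower, so a call is common here and 5 of 6 is not read as particular to these genes. This comparison shares its tagged libraries and its untransformed library with the one above and is not independent of it. LUX2 stood furthest out: 88.9% of all genes had a smaller absolute log2 fold change, against 51.4% for LUX1, 48.9% for J, 42.5% for Tof11, 36.5% for Tof12 and 23.6% for the ELF3 homologue. The median absolute log2 fold change was 0.69 over the 6 genes and 0.77 over all genes. Apart from LUX2, the members lay near the middle of that ranking or below it. Without tagged replicate 1, 2 genes passed (LUX2 and J), against 41.9% of all genes, and LUX1, Tof11 and Tof12 had adjusted p-values of 0.054, 0.0528 and 0.145 from edgeR.

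The scale moved these values by a common amount. The median log2 fold change of all genes was 0.03 with TMM scaling, 0.01 with RLE scaling and 0.21 with upper-quartile scaling, and the split of calls was 9510 higher and 10555 lower with TMM against 11739 higher and 8675 lower with upper-quartile scaling. Relative to the median of all genes, the changes under these scalings were -2.39 for LUX2, -0.78 for J, -0.36 for the ELF3 homologue, 0.49 for Tof12, 0.59 or 0.60 for Tof11 and 0.77 for LUX1. All 6 kept their direction in this comparison under each scaling.

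**Figure D4:**
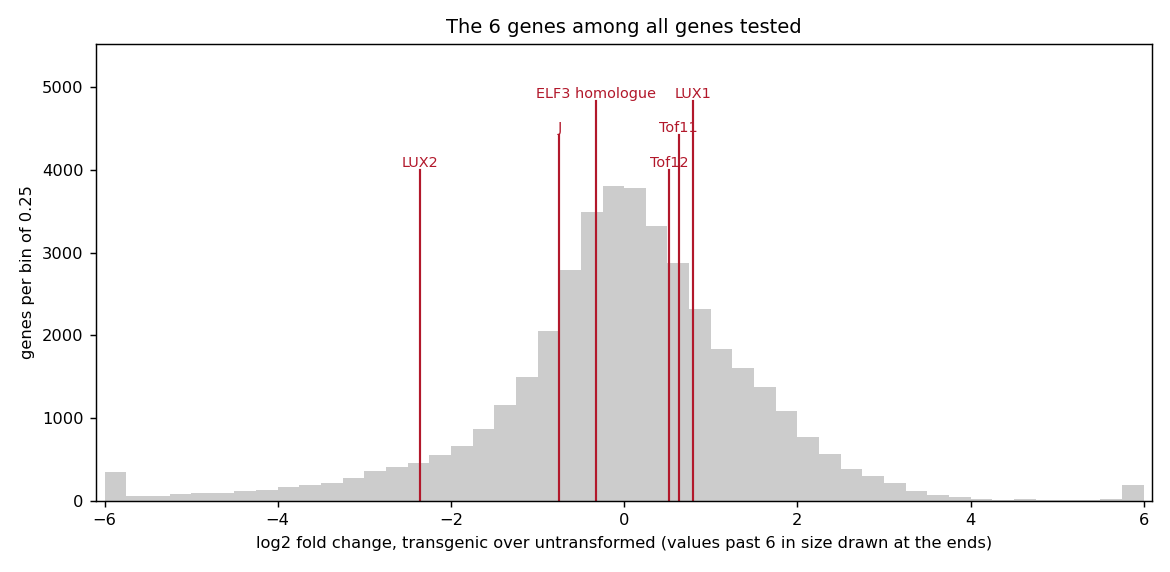
Histogram of log2 fold changes of transgenic over untransformed plants for all genes tested, in bins of 0.25, with values past 6 in size drawn in the end bins and red lines at the 6 genes. LUX2 at -2.36 lies in the lower tail, and the others lie between -0.75 and 0.80, near the centre of the distribution.

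Other genes of the photoperiod pathway were read from a list of 12 identifiers. The list was entered as 4 LHY genes, 3 genes of the E1 family, 2 FT genes, 1 GIGANTEA gene and 2 phytochrome A genes. The deposited tables and the reference table do not pair these identifiers with names, so the entries are given as groups. Of the 11 that could be tested in transgenic against untransformed plants, 10 fell relative to the single untransformed plant and 0 rose, where 25.8% of all genes were called lower. The list was drawn up with earlier results of these data known, so this count is a description and no independent evidence of a direction. Their median log2 fold change was -2.81, beside 0.03 over all genes. The 4 entries for LHY, clock repressors that PRR proteins act on, summed to 6058 and 6404 normalized counts in tagged 1 and tagged 2, 5668 in untagged 1 and 70741 in the untransformed plant. All 4 fell, with log2 fold changes between -5.76 and -2.73 (edgeR adjusted p from 2.5e-05 to 8.0e-05). In the untransformed plant the LHY entries were high, both PRR3 copies and LUX1 were low, and LUX2 and J were high. These are levels in a single plant at an unknown hour, and a relation between them was not tested.

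The 3 entries for the E1 family, targets of the evening complex, were scarce. They summed to 31 and 21 raw counts in tagged 1 and tagged 2, 2 in untagged 1 and 112 in the untransformed plant, and 2 of the 3 fell in transgenic plants. The FT entries, for florigen genes that E1 represses, summed to 1 and 1 raw counts in the tagged plants, 3 in untagged 1 and 236 in the untransformed plant; 1 of them was tested and fell, and the other had 1 count in each library. The untransformed plant had the highest sum for both groups. The E1-family entry that was not called had 21 and 10 raw counts in tagged 1 and tagged 2, 2 in untagged 1 and 21 in the untransformed plant. Its log2 fold change was -1.32 ± 0.86 (SE). The untransformed sum of the E1 family came mostly from the other entries, with 51 and 40 raw counts. The GIGANTEA entry had 4586 and 4552 normalized counts in tagged 1 and tagged 2, 3894 in untagged 1 and 7643 in the untransformed plant (log2 fold change -0.79 ± 0.18 SE, edgeR adjusted p = 0.01). The phytochrome A entries summed to 1568 and 1780 in the tagged plants, 1364 in untagged 1 and 4034 in the untransformed plant, and both fell. Between tagged and untagged plants 8 entries could be tested and 0 passed, against 0% of all genes.

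Likeness of pattern was measured as the root mean square difference between centred log2(CPM + 1) values over the 4 libraries, among 34595 other genes with a mean CPM of at least 1. Of the members, LUX1 and Tof11 were the most alike, 0.0439 apart, and Tof11 and Tof12 were 0.0802 apart. LUX1 and LUX2 were the least alike, 1.33 apart, and J lay 0.224 from its homologue. Such closeness was common for most members: 848 genes lay within 0.1 of J, 3077 within 0.1 of the ELF3 homologue, 940 of LUX1, 634 of Tof12 and 1164 of Tof11. Only 38 genes, or 0.11%, lay within 0.1 of LUX2, against 1.83% for Tof12 and up to 8.89% for the ELF3 homologue. The measure is not scaled to the size of a change, so this count also depends on how large the LUX2 change was. Between transgenic and untransformed plants, 88.9% of all genes had a smaller absolute log2 fold change than LUX2. The nearest gene to LUX2 was Glyma.09G276600 at 0.0269. It had 2.44 and 2.58 CPM in tagged 1 and tagged 2, 1.26 CPM in untagged 1 and 14.2 CPM in the untransformed plant. LUX2 itself had 11.3 and 11.8 CPM in tagged 1 and tagged 2, 6.93 in untagged 1 and 50.9 in the untransformed plant. The 1 added to each CPM shrinks fold changes more at low CPM, so genes close by this measure can differ in fold change. The nearest gene to LUX1 was Glyma.14G135400 at 0.00992, the nearest to J was Glyma.19G213800 at 0.0101, and the nearest to Tof12 was Glyma.15G184900 at 0.00705. The nearest gene to J was also at low CPM, 2.85 in untagged 1 and 6.17 in the untransformed plant, against 32.8 and 61.3 for J.

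Genes next to the members were looked at for the 5 members with a chromosome in the identifier, as the 5 identifiers on each side. Among the 8 tested neighbours of LUX2, log2 fold changes of transgenic over untransformed plants ran from -1.35 to 2.42, with 2 genes called higher and 3 lower, and 1 neighbour changed by as much as LUX2 in size. Among the 9 tested neighbours of LUX1 they ran from -3.94 to 0.85, with 1 gene called higher and 5 lower. Among the 10 of J, 3 were higher and 4 lower, among the 9 of Tof12 3 were higher and 3 lower, and among the 6 of the ELF3 homologue 2 were higher and 1 lower. In each stretch some neighbours were called higher and others lower.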

How the data were processed

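RNA-seq counts of 4 libraries were analysed. The authors deposited raw read counts per gene, and a second table of a scaled signal, the same counts over a size factor for that library; multiplying it back gave the counts within 0.01 for 100% of values, and these values are called normalized counts. The submitters' processing notes name DESeq2, HTSeq 0.6.1, HISAT2 2.1.0 and CASAVA 1.8. The genome build and the strand setting were not given in the sources used here. Reads shared by near-identical copies may be split or dropped by such counting, which was not tested for these pairs. A fold change the authors deposited for 1 gene was not used, and 0 columns of per-sample values were left over.

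edgeR 4.0.16 (R 4.3.3; quasi-likelihood, TMM, default low-count filter by group) was fitted on all genes, with Benjamini-Hochberg adjustment at 0.05; standard errors are the log2 fold change divided by the square root of F. The edgeR test was also run on simulated data with the same spread set for all genes. That spread was smaller than in the fit of tagged against untagged plants, so the simulation does not show the test's power there. Other settings tried were limma-voom (limma 3.58.1), DESeq2 1.42.0, upper-quartile and RLE scaling, 2 further filters, the other label as covariate, a replicate block and leaving out each library. Ratios between libraries carry exact 95% counting intervals. The genes named are the 6 members, the pathway list as groups, and the nearest gene by pattern for 4 members, 2 per direction of change, since identifiers carry no names. The members and lists were chosen with earlier results of these data known. The labels name separate plants, 1 per library. No sequence is shown, since no sequence table was used here.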

Additional observations from a re-analysis of the deposited data

How the results depend on the processing

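Of 138 recomputed log2 fold changes of the 6 genes, 115 kept direction and side of the threshold, 10 kept direction but lost the call, 5 gained one and 8 reversed; all 8 reversals were in tagged against untagged plants. With transgenic status added to the fit (so that the tag rests on the transgenic plants), log2 fold changes were 0.25 for J, 0.74 for LUX2, -0.082 for LUX1 and -0.038 for Tof11, and 2 genes in all were called. Leaving out 1 library gave -0.67 to 0.25 for J, -2.16 to 0.74 for LUX2, -0.081 to 0.77 for LUX1 and -0.037 to 0.62 for Tof11, the positive end of J and LUX2 and the negative end of LUX1 and Tof11 coming without untagged 2. It gave 0 to 5 members, 0 to 10 entries of the pathway list and 0 to 20088 genes called; DESeq2 called 19 genes. Tagged minus untagged shares ran from -4.94 to 4.15 percentage points for J, -14.1 to 36.9 for LUX1 and -0.997 to 2.54 for Tof12.

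In transgenic against untransformed plants, leaving out 1 library gave 2 to 5 members called, beside 41.9% to 49.4% of all genes, the lowest without tagged 1, and every member kept its direction in the 12 settings. J and LUX2 passed in 12 of 12, LUX1 and Tof11 in 10, Tof12 in 6 and the ELF3 homologue in 0. The replicate numbers of the labels were not taken as pairs: deviations from the group means correlated at -0.0456 between libraries of the same number (38824 genes). With the replicate block 2 members passed in this comparison (J and LUX2), beside 39.1% of all genes, and 0 in tagged against untagged plants, beside 0% of all genes. The causes were not tested. The E1-family and FT entries had few counts in the transgenic libraries. Their log2 fold changes against the untransformed plant had SEs of 0.68 to 0.95, beside 0.14 to 0.26 for the 6 genes.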
